A study of Ovis aries with 15 samples.

Results

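The 7 genes described here, ADIPOQ, PLIN1, CIDEC, CIDEA, FABP4, LPL and LIPE, are genes of fat cells, and they were read in kidney libraries to see how much adipocyte RNA these contained. They were chosen by symbol, and all 7 were found among the 25592 genes of the expression table. In 14 libraries, ADIPOQ, PLIN1 and CIDEC stayed below 1 FPKM throughout, whereas CIDEA, FABP4, LPL and LIPE had medians between 1.76 and 3.06 FPKM. In 2 of these libraries a single gene of the set stood more than 10 times above its next highest library, ADIPOQ in AFB1_CUR replicate 2 and FABP4 in AFB1 replicate 2.

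White fat surrounds the kidney as the perirenal depot, so a kidney sample can carry fat cells with it. An adipocyte stores triglyceride in a large lipid droplet. Perilipin 1 (PLIN1) coats this droplet, CIDEC and CIDEA let droplets fuse and grow, and hormone-sensitive lipase (LIPE) breaks the stored fat down. Lipoprotein lipase (LPL) releases fatty acids from circulating triglyceride, FABP4 carries them inside the cell, and ADIPOQ encodes the secreted hormone adiponectin. ADIPOQ and PLIN1 are largely restricted to adipocytes, while FABP4 is also made by capillary endothelium and macrophages, LPL by muscle and macrophages, LIPE by steroid-making cells, and CIDEC and CIDEA by a fat-laden liver.

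The RNA came from kidneys of male crossbred sheep (Dorper with Small-tailed Han) aged 4 months. CON sheep ate a total mixed ration, AFB1 sheep the same ration with aflatoxin B1, a liver and kidney toxin made by moulds, at 500 µg/kg of dry matter, and AFB1_CUR sheep that dose with curcumin at 800 mg/kg, all for 21 days. Each of the 3 groups had 5 libraries of poly(A) RNA, with total counts of 50255295 to 68747047. Sheep shared pens, and because nothing in the labels states which samples were independent, p-values measure only the spread between these libraries. No 2 libraries had identical counts. In bulk tissue, fewer cells of a type and less RNA per cell cannot be told apart.

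The library labelled AFB1 replicate 1 did not match its kidney label. Its ALB (serum albumin) stood at 25681 FPKM, against at most 23.9 in the other libraries. UMOD, made by the thick ascending limb, was at 0.108 FPKM there and at 126 or above elsewhere. NPHS1, the podocyte gene for nephrin, had a count of 0. It was therefore kept apart, and the 14 other libraries (5 CON, 4 AFB1, 5 AFB1_CUR) carry the main values, with results from all 15 given beside them.

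In the coordinates of the table, ADIPOQ lies on chromosome 1 (201189257 to 201202270, minus strand), PLIN1 on 18 (20403083 to 20431388, minus), CIDEC on 19 (16829864 to 16845137, plus) and CIDEA on 23 (43297142 to 43307738, plus). FABP4 lies on chromosome 9 (57758552 to 57763068, minus), LPL on 2 (45916870 to 45942109, minus) and LIPE on 14 (50467077 to 50488540, plus). The build is not named in the sources used here, and chromosome numbers were taken from the RefSeq table. Values are for whole genes, so exons and UTRs were not separated.

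Levels below are in FPKM, fragments per length of transcript and per sequencing depth, which can be compared between genes. ADIPOQ, the most specific of the set, was at or near 0 in all libraries but 1. It was listed at 0 in CON replicates 1 to 4 and at 0.0197 FPKM in CON replicate 5. In AFB1 it was at 0.0381 in replicate 2 and 0 in replicates 3, 4 and 5. In AFB1_CUR replicates 1 to 5 it was at 0, 0.678, 0.0196, 0.0294 and 0.0234. Only 6 of the 14 libraries had any count, and all but AFB1_CUR replicate 2 lay at 8 counts or fewer. That library had 139 counts, 17.8 times the next FPKM value. A count of 0 allows up to 3 counts, which corresponded to 0.0436 to 0.0597 CPM (counts scaled to library size) over the libraries. This limit covers counting error only. Among counts from 1 to 20 in the whole table, 37.3% were multiples of 4, against 25% if they were spread evenly. If counts came in steps of 4, the limit would be 0.175 to 0.239 CPM.

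PLIN1, the droplet coat, was low but present in every library. The CON replicates 1 to 5 had 0.331, 0.311, 0.278, 0.338 and 0.458 FPKM. AFB1 replicates 2 to 5 had 0.319, 0.177, 0.182 and 0.199. AFB1_CUR replicates 1 to 5 had 0.249, 0.219, 0.175, 0.376 and 0.507. All groups overlapped, although AFB1 replicates 3, 4 and 5 lay below every CON library. The PLIN1 level cannot be assigned to PLIN1 alone. The span of PLIN1 contains the whole of PEX11A (20424326 to 20431388, same strand), a gene for a peroxisome protein, and both spans end at the same base. How the shared 7063 bases were counted is not given in the sources used here.

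PEX11A was higher than PLIN1, at 1.06 to 5.65 FPKM with a median of 2.1 over the 14 libraries. PLIN1 and PEX11A moved together across libraries, with r = 0.63 (permutation p = 0.0194, adjusted p = 0.0389 over the 2 overlaps tested) and rho = 0.60 (permutation p = 0.0271). Without CON replicate 5 and AFB1_CUR replicate 2, the libraries farthest from the PEX11A median, r was 0.50. Both genes also peaked together in AFB1 replicate 1, PEX11A at 11.6 FPKM and PLIN1 at 2.59. CIDEC shares 1463 bases with JAGN1 on the opposite strand, and there r was -0.24 (permutation p = 0.425) over the 14 libraries. In AFB1 replicate 1 this pair also peaked together, JAGN1 at 44.98 FPKM, against 15.3 to 22.1 in the 14, and CIDEC at 10.4. The part of the shared bases in the PLIN1 and CIDEC levels was not tested.

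CIDEC, which enlarges the single droplet of white adipocytes, was near the limit of detection. The CON replicates 1 to 5 had 0.239, 0.106, 0.136, 0 and 0.0554 FPKM. AFB1 replicates 2 to 5 had 0.356, 0.0988, 0.0563 and 0. AFB1_CUR replicates 1 to 5 had 0.156, 0.104, 0.0574, 0.0686 and 0.0715. The highest of these, AFB1 replicate 2, rested on 35 counts, and the groups overlapped throughout. CIDEA, its relative with a role in brown and beige fat, was higher and varied widely inside every group. Its CON values were 4.26, 2.09, 1.72, 2.90 and 0.732 FPKM. In AFB1 replicates 2 to 5 they were 0.793, 2.03, 3.73 and 1.79. In AFB1_CUR they were 0.730, 1.62, 1.12, 1.15 and 3.40. The groups overlapped, and the highest CIDEA value of the 14, in CON replicate 1, came with an ADIPOQ count of 0.

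FABP4, the fatty acid carrier, had the widest range in FPKM. CON replicates 1 to 5 had 3.10, 2.83, 2.05, 0 and 3.70 FPKM. AFB1 replicates 2 to 5 had 62.8, 0.548, 0 and 0.979. AFB1_CUR replicates 1 to 5 had 0.141, 5.75, 0.782, 3.08 and 4.59. AFB1 replicate 2 was 10.9 times the next library and 25.7 times the median of the 14, with 1451 counts against at most 141 elsewhere. Without that library the AFB1 values lay below the other 4 CON values apart from the 0 of CON replicate 4.

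The lipases were present in every library. LPL was at 2.1, 3.10, 1.89, 1.69 and 1.94 FPKM in CON, at 3.38, 2.37, 1.65 and 1.03 in AFB1 replicates 2 to 5, and at 2.11, 3.58, 2.16, 2.35 and 2.85 in AFB1_CUR. LIPE was at 3.07, 4.45, 3.29, 1.85 and 1.61 in CON, at 3.05, 4.37, 4.14 and 1.70 in AFB1 replicates 2 to 5, and at 2.78, 3.27, 2.53, 2.76 and 3.45 in AFB1_CUR. Each of the 14 libraries held more than 1 FPKM of both, including those with an ADIPOQ count of 0. For LPL the highest libraries were AFB1_CUR replicate 2 and AFB1 replicate 2, whereas LIPE ranked only 6th and 8th there.

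**Figure D1:**
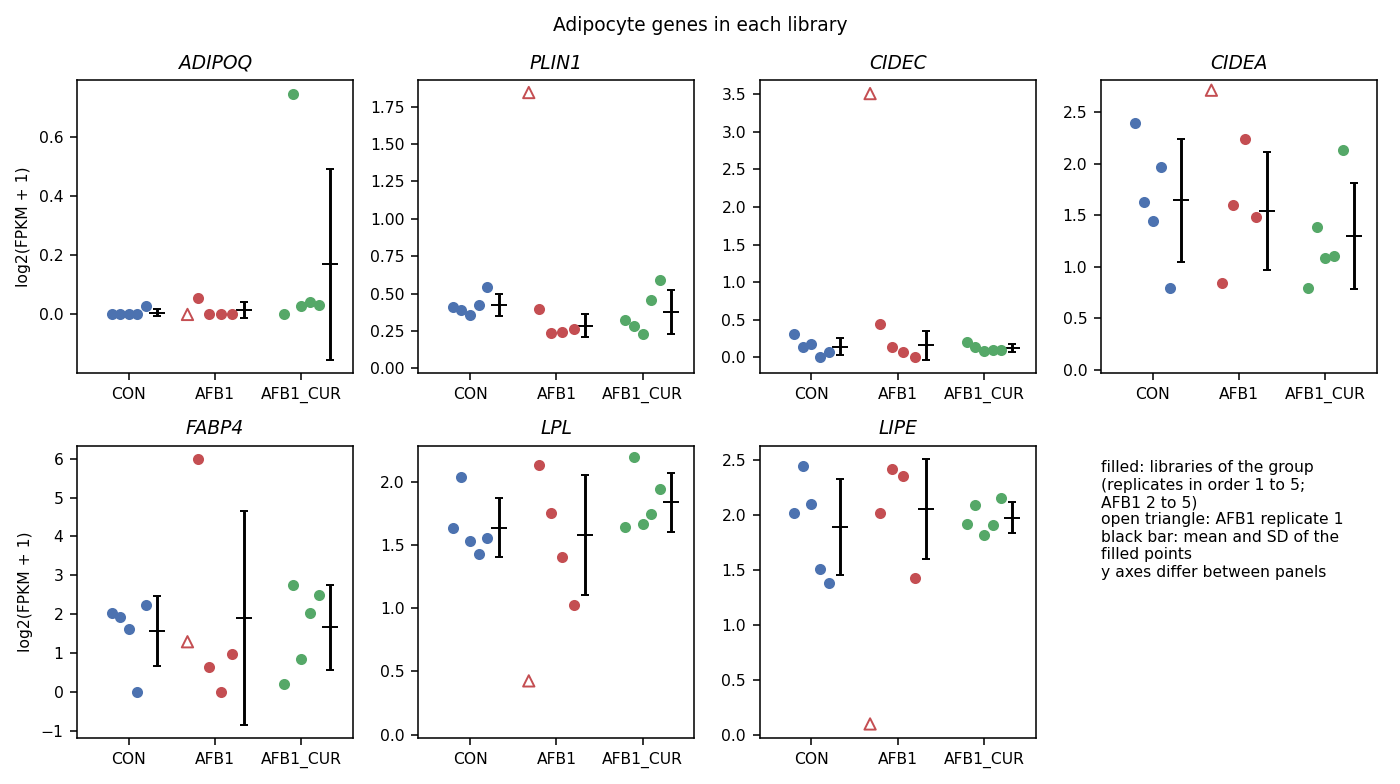
Level of each of the 7 genes, as log2(FPKM + 1) on the vertical axis, in the CON, AFB1 and AFB1_CUR libraries. Filled points are libraries, black bars are the mean and SD of the filled points (n = 5, 4 and 5), and open triangles are AFB1 replicate 1. Single points stand out for ADIPOQ in AFB1_CUR (0.678 FPKM) and FABP4 in AFB1 (62.8 FPKM), while the triangles for PLIN1, CIDEC and CIDEA lie above every filled point and those for LPL and LIPE below.

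By median FPKM over the 14 libraries the order was LIPE (3.06), FABP4 (2.44), LPL (2.14), CIDEA (1.76), PLIN1 (0.294), CIDEC (0.0852) and ADIPOQ (0). The first 4 were not separated, as LIPE exceeded FABP4 in 8 of 14 libraries, FABP4 exceeded LPL in 7 and LPL exceeded CIDEA in 9. CIDEA exceeded PLIN1 in 14 of 14 libraries, PLIN1 exceeded CIDEC in 13 and CIDEC exceeded ADIPOQ in 11.

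In AFB1 replicate 1 the set had another shape. PLIN1 at 2.59 FPKM, CIDEC at 10.4 and CIDEA at 5.57 were the highest of all 15 libraries. CIDEC was 29.1 times the next AFB1 library, and PLIN1 8.13 times. The highest PLIN1 of the 14 libraries was in another group, at 0.507 FPKM in AFB1_CUR replicate 5. LPL at 0.342 and LIPE at 0.0725 were the lowest of the 15, FABP4 stood at 1.44, and the ADIPOQ count was 0. The library with the most CIDEC and PLIN1 therefore had no adiponectin count.

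To ask whether aflatoxin or curcumin went with a change in these genes, the counts were fitted across all genes with edgeR's quasi-likelihood test. A called gene had a fold change over 1.5 with p below 0.05 before adjustment. ADIPOQ passed the filter on low counts only through AFB1_CUR replicate 2, which held 139 of its 167 counts, so its fitted values are a description with no test and it is left out of the counts of called genes. For AFB1 against CON, 0 of the 6 other genes were called, beside 2.66% of the 19404 genes tested (1.29% higher and 1.37% lower). The median log2 fold change of the 6 was 0.04, against 0.03 over all genes tested. PLIN1 had a log2 fold change of -0.65 (SE 0.35, unadjusted p = 0.0864, adjusted p = 0.970 in edgeR). FABP4 had 2.66 (SE 1.5, unadjusted p = 0.0970, adjusted p = 0.970 in edgeR), and without AFB1 replicate 2 this turned to -2.06, while without AFB1 replicate 4 it was called at 3.08 (unadjusted p = 0.0427 in edgeR). PLIN1 was called at -0.83 (unadjusted p = 0.0468 in edgeR) when AFB1 replicate 2 and AFB1_CUR replicate 2 were both left out. The values were 0.14 for CIDEC, -0.14 for CIDEA, -0.05 for LPL and 0.22 for LIPE. CIDEC also turned without AFB1 replicate 2, to -1.02. ADIPOQ, with 4 counts in all of CON and 8 in AFB1, was fitted at 1.21.

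For AFB1_CUR against AFB1, 0 of the 6 genes were called, beside 1.8% of all genes (0.892% higher and 0.907% lower). The even balance over all genes, 173 higher and 176 lower, became 408 and 220 without AFB1 replicate 2, and 187 and 293 without AFB1_CUR replicate 2. The median of the 6 was -0.31, against 0.00 over all genes tested. ADIPOQ had a log2 fold change of 3.68 (SE 1.73) and FABP4 one of -2.48 (SE 1.49, unadjusted p = 0.118, adjusted p = 1.0 in edgeR). With AFB1 replicate 2 left out FABP4 turned to 2.24, and with AFB1_CUR replicate 2 left out and no filter ADIPOQ came to 0.93. PLIN1 had 0.41, CIDEC -0.41, CIDEA -0.48, LPL 0.26 and LIPE -0.22.

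For AFB1_CUR against CON, 0 of the 6 genes were called, beside 2.74% of all genes (1.86% higher and 0.876% lower). Without AFB1_CUR replicate 2 the balance over all genes turned, from 361 higher and 170 lower to 116 and 173. ADIPOQ had a fitted log2 fold change of 4.89 (SE 1.73), which rests on AFB1_CUR replicate 2. Without that library it was 2.08 (SE 1.73), with no filter on low counts because ADIPOQ then fell below it. The median of the 6 was -0.12, against 0.02 over all genes tested. PLIN1 had -0.24, CIDEC -0.27, CIDEA -0.62, FABP4 0.18, LPL 0.21 and LIPE 0.00 to 2 decimals. CIDEA was called at -1.09 (unadjusted p = 0.0482 in edgeR) without AFB1_CUR replicate 5.

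No gene tested passed an adjusted p of 0.05 in edgeR in any of these comparisons, while 973, 549 and 1063 genes had an unadjusted p under 0.05 and DESeq2 passed 22, 6 and 2 after adjustment. Of the 6 genes other than ADIPOQ, 0 had FPKM ranges that did not overlap between the compared groups, in each comparison. Over all genes tested, 1.61%, 0.742% and 0.763% had such ranges. ADIPOQ was at 0 in libraries of every group, so its ranges had to overlap. The comparisons share libraries, AFB1 or CON or AFB1_CUR, so their values are not independent.

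Including AFB1 replicate 1 changed which genes were called. With all 15 libraries, CIDEC was called higher in AFB1 than in CON, with a log2 fold change of 4.91 (SE 1.68, unadjusted p = 0.0108, adjusted p = 0.411 in edgeR), beside 6.99% of all genes (5.59% higher and 1.4% lower). PLIN1 turned from -0.65 to 1.54 without being called. In AFB1_CUR against AFB1, 2 of the 6 genes other than ADIPOQ were called, beside 6.08% of all genes (1.06% higher and 5.02% lower), namely PLIN1 at -1.79 and CIDEC at -5.20, and ADIPOQ was at 3.91. In AFB1_CUR against CON, where that library does not enter the contrast, 0 of these 6 were called, beside 1.71% (1.23% higher and 0.485% lower), and ADIPOQ was at 4.86.

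**Figure D2:**
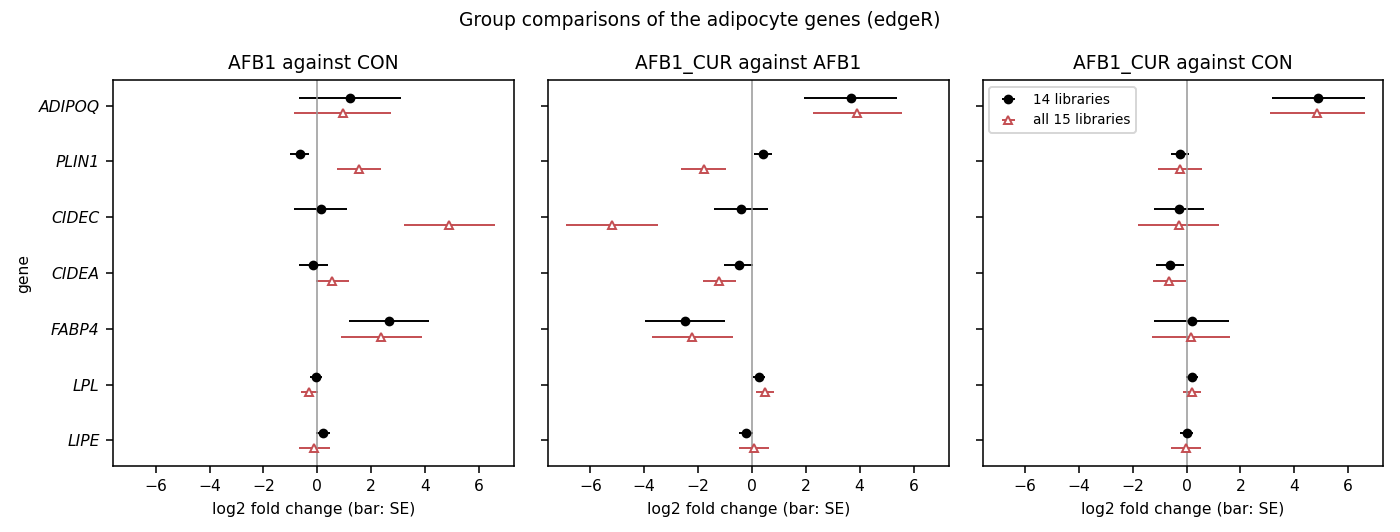
Log2 fold change of each gene with its SE (horizontal axis) in the 3 group comparisons, from edgeR with 14 libraries (black circles) and all 15 (red triangles). For PLIN1 and CIDEC the triangles move from -0.65 to 1.54 and from 0.14 to 4.91 in AFB1 against CON, and ADIPOQ has an SE of 1.73 at 4.89 in AFB1_CUR against CON.

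Whether the genes were high in the same libraries was read from their ranks. AFB1_CUR replicate 2, highest for ADIPOQ and LPL and 2nd for FABP4, ranked 10th of 14 for PLIN1, 6th for CIDEC and 9th for CIDEA. AFB1 replicate 2, highest for FABP4 and CIDEC and 2nd for ADIPOQ and LPL, ranked 6th for PLIN1, 12th for CIDEA and 8th for LIPE. AFB1_CUR replicate 5, highest for PLIN1, ranked 3rd for CIDEA and FABP4, 4th for ADIPOQ, LPL and LIPE, and 8th for CIDEC.

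Over the 21 pairs of genes, Pearson's r on log2(FPKM + 1) was above 0 in 15 pairs and had a median of 0.09. None of the 21 passed an adjusted p of 0.05 by permutation, and 4 had an unadjusted p below it. The pair CIDEC and FABP4 had r = 0.70 (permutation p = 0.0125, adjusted p = 0.143, rho = 0.41), which fell to 0.21 without CON replicate 1 and AFB1 replicate 2. For FABP4 and LPL, r was 0.65 (permutation p = 0.0136, adjusted p = 0.143, rho = 0.63), and 0.55 without the 2 libraries farthest from the FABP4 median. CIDEC and LPL had r = 0.54 (permutation p = 0.0470, adjusted p = 0.251), as did LPL and LIPE (permutation p = 0.0477, adjusted p = 0.251), with 0.56 and 0.39 after the same step.

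Correlations among ADIPOQ, PLIN1 and CIDEC lay near 0. ADIPOQ and PLIN1 had r = -0.16 (permutation p = 0.587), ADIPOQ and CIDEC 0.03 (permutation p = 0.862) and PLIN1 and CIDEC 0.07 (permutation p = 0.807). By rank, ADIPOQ and FABP4 had the highest rho, 0.76 (permutation p = 0.00271, adjusted p = 0.0569), whereas their r was 0.27 (permutation p = 0.254, adjusted p = 0.592). The ADIPOQ ranks hold 8 ties at 0 and rest on 4 to 8 counts in all but 1 of the other libraries. With all 15 libraries r for PLIN1 and CIDEC became 0.96, a value that rests on AFB1 replicate 1 alone. Without AFB1 replicate 2 and AFB1_CUR replicate 2, r for ADIPOQ and PLIN1 was 0.54, over libraries where ADIPOQ had at most 6 counts. Over those 12 libraries the median r of the 21 pairs was 0.28, and the highest was PLIN1 and FABP4 at 0.72 (unadjusted permutation p = 0.00985).

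**Figure D3:**
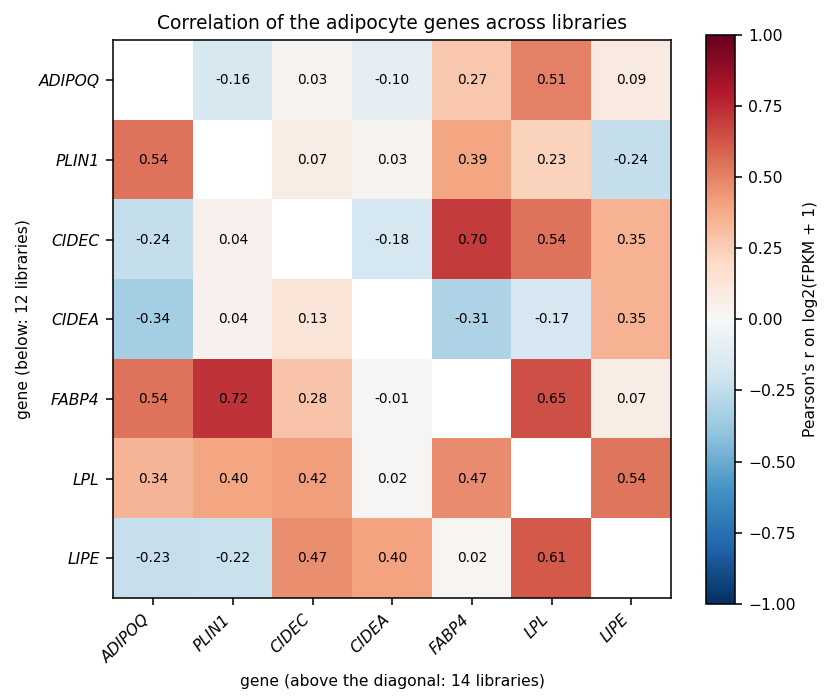
Pearson's r on log2(FPKM + 1) between each pair of the 7 genes, above the diagonal over 14 libraries and below it over the 12 left without AFB1 replicate 2 and AFB1_CUR replicate 2. Above the diagonal, CIDEC and FABP4 stand out at 0.70 and fall to 0.28 below it, while ADIPOQ, PLIN1 and CIDEC lie between -0.16 and 0.07 with each other.

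Of 30 further genes of adipocytes, 27 were in the table and 25 could be tested; LEP, CD36 and TRARG1 were not analysed here. Of the 27, 18 were over 1 FPKM in all 14 libraries and 8 stayed under it in all 14. Among the 18 were AQP7, a glycerol channel, at 5.46 to 18.2 FPKM, G0S2 at 12.4 to 35.0, SLC2A4, the insulin-regulated glucose transporter, at 1.87 to 4.14, and CFD (adipsin) at 11.5 to 68.4. The same 18 held PCK1 at 569 to 1913 FPKM, GPD1 at 46.4 to 189 and CIDEB at 33.2 to 79.6. Whether fat cells or other cells of the kidney gave the levels of these 18 was not tested. The 8 low genes were as follows. PPARG, the master regulator of fat cell formation, ranged from 0.0791 to 0.505 FPKM. PLIN4, a perilipin of white adipocytes, ranged from 0.0169 to 0.144. RETN reached 0.942, ADRB3, the adrenergic receptor of fat, 0.796, LGALS12 0.326, THRSP 0.273, MRAP 0.190 and ACVR1C 0.106. Of these 8, PPARG was highest in AFB1 replicate 2, and PLIN4, RETN and LGALS12 in AFB1_CUR replicate 2. THRSP and MRAP were highest in AFB1_CUR replicate 5, ADRB3 in AFB1_CUR replicate 4 and ACVR1C in CON replicate 5.

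CFD was highest of the 14 in AFB1 replicate 2 and stood at 298 FPKM in AFB1 replicate 1. In AFB1 against CON, 2 of the 25 were called, beside 2.66% of all genes. They were PDE3B higher with a log2 fold change of 0.60 (SE 0.16), and G0S2, an inhibitor of the lipase that starts droplet breakdown, lower at -0.76 (SE 0.29). Their unadjusted p-values were 0.00260 and 0.0214 in edgeR, with adjusted p = 0.970. AFB1_CUR against AFB1 and AFB1_CUR against CON called 0 of 25, beside 1.8% and 2.74% of all genes. With all 15 libraries 0 of 27 were called lower in AFB1 than in CON, so G0S2, at 199 FPKM in AFB1 replicate 1, lost its call. There 7 of 27 were called higher, beside 5.59% of all genes, among them RBP4 and THRSP at 4.59 and 4.60. RBP4 and THRSP stood at 867 and 5.36 FPKM in AFB1 replicate 1, against at most 28.1 and 0.273 in the 14. In the same fit 19 of 19 hepatocyte genes were called higher. In AFB1_CUR against AFB1, 7 of 27 were then called lower, beside 5.02%.

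UCP1, the uncoupling protein of brown fat, ranged from 0.0126 to 0.176 FPKM. It was called higher in AFB1 than in CON at 1.54 (SE 0.70, unadjusted p = 0.0452, adjusted p = 0.970 in edgeR), between 9 and 104 counts, and was the 1 gene called of 5 brown adipocyte genes tested, beside 1.29% of all genes called higher. It was not called with all 15 libraries (1.21, unadjusted p = 0.197 in edgeR). Of the droplet genes used by many cell types, PLIN2, the perilipin of non-adipose cells, ranged from 2.49 to 6.57 FPKM over the 14 libraries and HILPDA from 0.637 to 5.59. With 14 libraries 0 of 9 such genes were called in each of the 3 comparisons, beside 2.66%, 1.8% and 2.74% of all genes tested. With all 15, 1 of 9 was called higher in AFB1 than in CON (ABHD5), beside 5.59% of all genes. In AFB1_CUR against AFB1, 3 of 9 were called lower (PLIN2, ABHD5 and MGLL), beside 5.02%. PLIN2 was at 19.3 FPKM in AFB1 replicate 1.

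The libraries with the ADIPOQ and FABP4 peaks also had higher levels of macrophage, lymphocyte and fibroblast genes. The mean log2(FPKM + 1) of 9 macrophage genes was 4.46 in AFB1 replicate 2 and 4.45 in AFB1_CUR replicate 2, against 2.05 to 3.45 in the other 12. For 8 lymphocyte genes it was 3.82 and 4.86 against 1.14 to 2.40, and for 10 fibroblast and capsule genes 4.11 and 5.47 against 3.02 to 3.91. For 6 smooth muscle genes it was 4.72, within the range of the other 12, and 5.55, above it (3.65 to 4.89). The 12 endothelial genes lay within the range in both, at 3.95 and 3.93 against 3.21 to 4.05. The mean of the 8 proximal tubule genes was lowest there, at 7.11 and 7.00 against 7.13 to 8.52. This did not hold for each gene, as SLC34A1 was at 287 and 162 FPKM, within its range over the 14 libraries (53.0 to 346). For 19 hepatocyte genes the mean was 2.75 and 1.33 against 1.56 to 2.48.

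STAR and CYP11A1, genes of steroid-making cells, were higher in the same libraries. The mean log2(FPKM + 1) of 9 adrenal genes was 0.74 and 1.14 there against 0.24 to 0.54. Without STAR and CYP11A1, the other 7 summed to 2.96 FPKM in AFB1 replicate 2 and 5.57 in AFB1_CUR replicate 2, against 1.57 to 5.46. CYP11A1, the first enzyme of steroid synthesis, was at 1.43 FPKM in AFB1 replicate 2 and 4.57 in AFB1_CUR replicate 2, and at 0 in the other 12. STAR, which carries cholesterol into mitochondria, was at 4.21 and 10.8. CD68, a macrophage gene, was at 5.63 and 9.10 FPKM, against at most 2.24 in the other 12. In AFB1 replicate 1 CD68 was at 6.61 and the macrophage mean at 4.60, with FABP4 at 1.44 FPKM and an ADIPOQ count of 0. MS4A1, the B cell marker CD20, reached 46.3 in AFB1_CUR replicate 2 and 7.57 in AFB1 replicate 2. The part of these cell types in the ADIPOQ and FABP4 values was not tested.

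**Figure D4:**
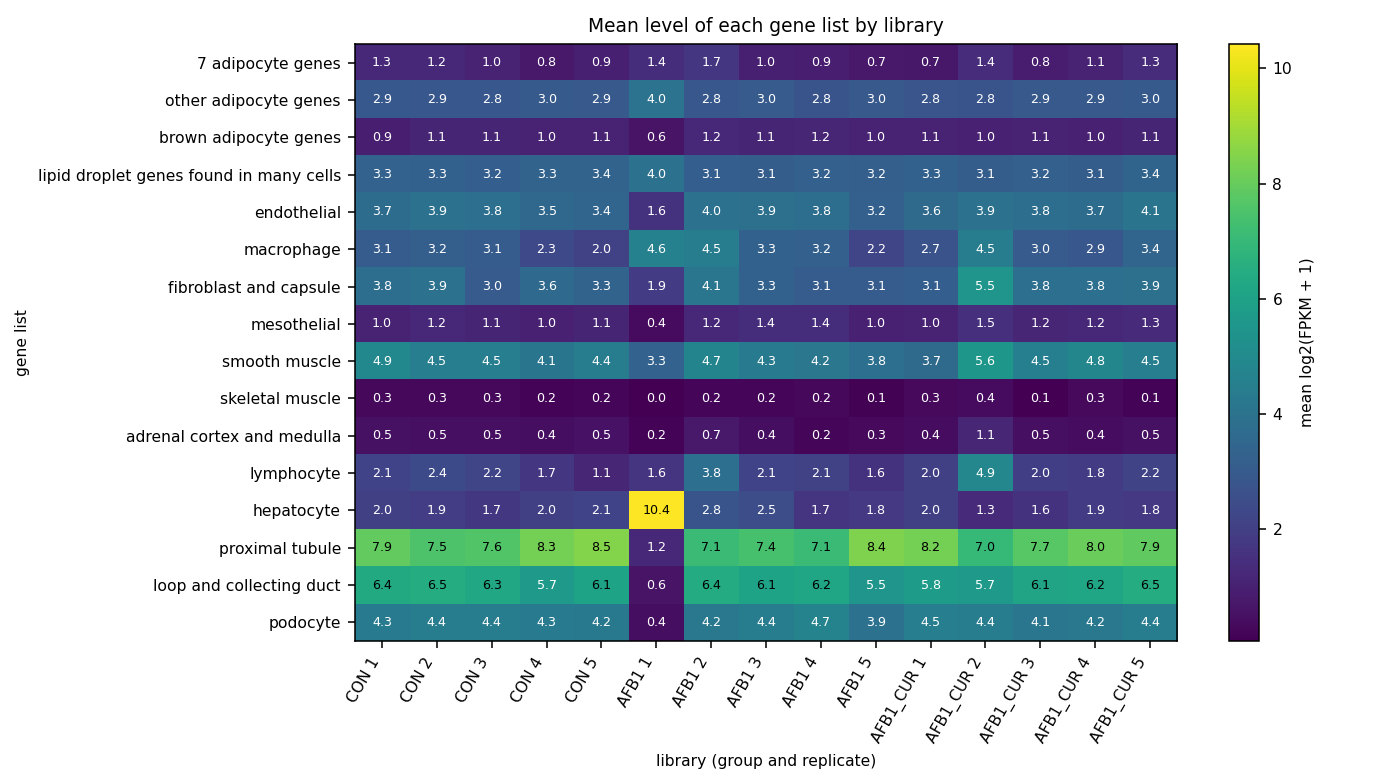
Mean log2(FPKM + 1) of the 7 genes and of other gene lists (rows) in each library (columns), with the value in each cell. The 7 genes lie between 0.7 and 1.7 everywhere, lymphocyte, macrophage and fibroblast genes are highest among kidney libraries in AFB1 replicate 2 and AFB1_CUR replicate 2, and hepatocyte genes reach 10.4 in AFB1 replicate 1.

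The 15 genes whose levels followed most closely the mean log2(FPKM + 1) of ADIPOQ, PLIN1 and CIDEC over the 14 libraries had r from 0.89 to 0.94. They were led by CEP85 (0.94), FST (0.92), LOC101105609 (0.92), ANGPT4 (0.91) and FKBP14 (0.91), and included FGF10 and VIPR2 at 0.90. All 15 were highest in AFB1_CUR replicate 2, and whether the likeness rests on that library was not tested. The mean itself correlated at 0.73 with ADIPOQ, 0.37 with PLIN1 and 0.53 with CIDEC, which are its own parts. Outside it, LPL was at 0.76, FABP4 at 0.72, LIPE at 0.13 and CIDEA at -0.15.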

How the data were processed

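Kidney poly(A) RNA of 15 sheep was sequenced in 3 groups of 5. Per the labels, the authors prepared strand-preserving libraries, and their processing notes name cutadapt 1.9, HISAT2 2.2.1, StringTie 2.1.6, DESeq2 and edgeR. No source used here names the counting tool or the genome build. For 25592 genes in 15 libraries, the authors deposited counts and FPKM values. The values were used as deposited, and groups and replicate numbers came from the titles.

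Counts were tested with edgeR 4.0.16 (R 4.3.3; quasi-likelihood test, TMM) in 1 fit of the 14 libraries other than AFB1 replicate 1. It used genes with a mean count of at least 10 over these libraries, which all 7 adipocyte genes passed, though ADIPOQ did so only through AFB1_CUR replicate 2. Called genes had a fold change over 1.5 with p below 0.05 before adjustment, as in the study's screen. Benjamini-Hochberg adjustment ran over all genes tested. Correlations used log2(FPKM + 1), with 100000 two-sided permutations. Their p-values were adjusted over the 21 pairs.

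The text names all 7 genes, up to 4 called members of each list and comparison where a result turned on them, 6 fixed fat genes (UCP1, LEP, PPARG, PLIN2, PLIN4 and CFD) and, of the 15 most similar genes, 7. PEX11A and JAGN1 were named after their values were seen, because they overlap PLIN1 and CIDEC. Other list genes given only with their level ranges were also named after their values were seen. Of 173 genes in 16 lists, 157 were in the table. The members and lists were chosen with earlier results of these data known. Symbols of all 7 matched the RefSeq table of ARS-UI_Ramb_v3.0, and 99.6% of uniquely matched genes had the same start and end there.

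Alternatives were all 15 libraries, other filters and normalizations, DESeq2 1.42.0, limma 3.58.1 on log2(FPKM + 1) and log2(FPKM + 0.1), only the compared groups, a replicate block, and leaving out each library. Dividing counts by 4, leaving out AFB1 replicate 2 and AFB1_CUR replicate 2 together, and leaving out AFB1_CUR replicate 2 with no filter were added after seeing the data.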

Additional observations from a re-analysis of the deposited data

Results flagged for a closer look

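For each gene, the highest and lowest library of each group was compared with its nearest neighbour by Dixon's test, in 28 sets of libraries. Chance alone marks about 1 in 20 sets, but this rate does not hold where all libraries but 1 are at 0, and the AFB1 sets of 4 and 5 libraries are not independent. ADIPOQ stood apart in CON replicate 5 (0.0197 FPKM), in AFB1 replicate 2 (0.0381 FPKM, with or without AFB1 replicate 1 in the group) and in AFB1_CUR replicate 2 (0.678 FPKM). In CON and AFB1 these rest on 4 and 8 counts against 0 in the rest of the group, where any count stands apart. PLIN1 stood apart in AFB1 replicate 2 (0.319 FPKM) among 4 libraries and in AFB1 replicate 1 (2.59 FPKM) among 5. CIDEC stood apart in AFB1 replicate 1 (10.4 FPKM). FABP4 stood apart in CON replicate 4, where it was listed at 0, and in AFB1 replicate 2 (62.8 FPKM), among 4 or 5 AFB1 libraries.

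AFB1 replicate 1 was outside the main comparisons. There, PLIN1 at 2.59 FPKM, CIDEC at 10.4 and CIDEA at 5.57 exceeded the highest CON library, which had 0.458, 0.239 and 4.26 FPKM.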

How the results depend on the processing

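With all 15 libraries the genes called numbered 1369 (AFB1 against CON), 1191 (AFB1_CUR against AFB1) and 335 (AFB1_CUR against CON), beside 517, 349 and 531 with 14. With no filter they numbered 867, 707 and 928, with 5 or more libraries at 1 FPKM or above 232, 123 and 214, and with limma on log2(FPKM + 1) 110, 87 and 84. With limma on log2(FPKM + 0.1), AFB1_CUR against CON called 346, and without AFB1 replicate 2 and AFB1_CUR replicate 2 it called 325. With AFB1_CUR replicate 2 left out and no filter, AFB1 against CON called 983 and AFB1_CUR against AFB1 810. Leaving out 1 library gave 460 to 819 (highest without AFB1 replicate 5), 323 to 628 (highest without AFB1 replicate 2) and 289 to 720 (lowest without AFB1_CUR replicate 2). Correlated pairs numbered 0, 1 with all 15 libraries, and 0 to 2 with 1 library left out (2 without AFB1 replicate 5). Of the settings for single genes other than ADIPOQ, 411 kept direction and side of the threshold. Another 43 turned direction, called or not, and 5 kept direction and came past the threshold. The 43 include PLIN1 in AFB1_CUR against AFB1 with all 15 libraries, which was called after turning.

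With all 15 libraries, AFB1 against CON turned to 1.54 for PLIN1, 0.56 for CIDEA and -0.10 for LIPE (log2 fold changes throughout), and AFB1_CUR against AFB1 to -1.79 for PLIN1 and 0.087 for LIPE. With limma on log2(FPKM + 0.1), FABP4 turned to -0.053 and 0.31 in these comparisons. In AFB1_CUR against CON, LIPE, at 0.00, became 0.086 with limma on log2(FPKM + 1) and 0.13 with log2(FPKM + 0.1). There ADIPOQ was at 0.16 and 0.73 with limma. Without both libraries, AFB1 against CON gave -1.03 for CIDEC, 0.13 for CIDEA and -2.08 for FABP4, AFB1_CUR against AFB1 gave 0.76 for CIDEC and 1.93 for FABP4, and AFB1_CUR against CON gave -0.15 for FABP4 and 0.010 for LIPE. With AFB1_CUR replicate 2 left out and no filter, the last comparison gave -0.15 for FABP4 and 0.010 for LIPE. The cause of these changes was not tested.

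Leaving out 1 library, AFB1 against CON ranged from -2.94 to 4.16 for ADIPOQ, -1.02 to 0.67 for CIDEC, -0.58 to 0.20 for CIDEA, -2.06 to 3.08 for FABP4 and -0.31 to 0.14 for LPL. AFB1_CUR against AFB1 ranged from 3.26 to 7.83 for ADIPOQ, -0.81 to 0.75 for CIDEC and -2.90 to 2.24 for FABP4, and AFB1_CUR against CON from 4.57 to 7.84 for ADIPOQ (which was below the filter without AFB1_CUR replicate 2), -0.58 to 0.26 for CIDEC, -0.15 to 0.48 for FABP4 and -0.14 to 0.17 for LIPE. ADIPOQ values against a group at 0 depend on the prior count and are no bound, and DESeq2 gave no p for ADIPOQ and FABP4.

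Samples of the same replicate number deviated together in 6 of 13 pairs (r over 0.1, range -0.24 to 0.55), and 4 of 14 libraries matched their own number best, so the numbers were not read as pairing. With the replicate block the genes called numbered 476, 343 and 579. Under the block AFB1 against CON turned to -0.43 for ADIPOQ and -0.27 for FABP4, AFB1_CUR against AFB1 to 0.32 for FABP4, and AFB1_CUR against CON to 0.093 for CIDEC and 0.068 for LIPE, and ADIPOQ was at 4.09 in AFB1_CUR against AFB1. With counts divided by 4 the genes called numbered 577, 401 and 587, and ADIPOQ was at 3.54 in the same comparison. Its values rest on AFB1_CUR replicate 2 and are given with no test.

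At these depths ADIPOQ, CIDEC and UCP1 rest on few counts. The files give no depth for FPKM values beyond the counts.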
